A study of Mus musculus with 4 samples.

Results

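The H3K4me2 list of mouse embryonic stem cells held 4257 short autosomal domains that stood alone and carried no called LSD1 peak. They were found by joining H3K4me2 peaks within 1 kb of each other into domains, and by keeping those that spanned under 1 kb, overlapped no LSD1 or IgG peak by 1 bp or more, and lay more than 20 kb from the nearest other domain on both sides. They made up 18.3% of the 23226 autosomal domains (23437 on all chromosomes) and 54.6% of the 7801 autosomal domains with that isolation. Of the autosomal domains 12375 spanned under 1 kb, 11397 of these had no LSD1 peak, and removing overlaps with IgG peaks took away no further domain. The domains were thus chosen by the H3K4me2, LSD1 and IgG calls, and the H3K4me2 and LSD1 levels inside them describe what was chosen.

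Dimethylation of lysine 4 of histone H3 is a mark of promoters and enhancers. Wide stretches of it are typical of active or poised promoters, while short stretches away from other marked chromatin are typical of distal regulatory elements. The enzyme LSD1 takes methyl groups off lysine 4 when it carries one or a pair of them, so H3K4me2 is among its substrates. It acts at enhancers of embryonic stem cells together with the CoREST and NuRD complexes.

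All 4 libraries came from R1 embryonic stem cells, a 129SV line grown with leukaemia inhibitory factor and taken at passages 13 to 18. In all of them the cells were fixed with formaldehyde. Input was chromatin taken before antibody was added, IgG was recovered with a control antibody, and the other libraries were recovered with antibodies labelled as against LSD1 and against H3K4me2. The name LSD1 follows the label, since the catalogue number given for that antibody is known for one against H3K27me3. The libraries held 3801082 reads for Input, 4755619 for IgG, 5833862 for LSD1 and 6416657 for H3K4me2, and values are given as reads or as RPM, the reads per 1000000 in that library. Each group was 1 library of 1 cell line, and the labels do not say whether the libraries shared a culture. No test between groups was therefore possible, and differences hold for these libraries alone. Intervals (95%) cover counting error only.

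Each domain was small and rested on few reads. Spans ran from 224 to 999 bp with a median of 609 bp, and 4211 of the 4257 domains were a single peak, the other 46 being 2 peaks joined. H3K4me2 reads per domain ranged from 10 to 67 with a median of 25, and LSD1 reads from 0 to 31 with a median of 11. IgG reads ranged from 0 to 14 with a median of 3, and Input reads from 0 to 7 with a median of 1. The 5% of domains lowest in H3K4me2 thus held no more than 14 reads, as many as the highest IgG count. The middle 50% of LSD1 counts, 7 to 15, lay almost wholly within the full range of IgG. The top of that range was rare, since the upper 5% of IgG counts began at 7 reads. These counts are not scaled for the greater depth of the ChIP libraries. No IgG read was present in 389 domains (9.14%) and no Input read in 1748 (41.1%), whereas LSD1 reads were missing from 5. A count of 0 allows 3 reads, or 0.631 RPM in IgG and 0.789 RPM in Input. All these domains together covered 2.67 Mb and took up 1.72% of the H3K4me2 library, 0.829% of the LSD1 library, 0.261% of IgG and 0.111% of Input.

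**Figure D1:**
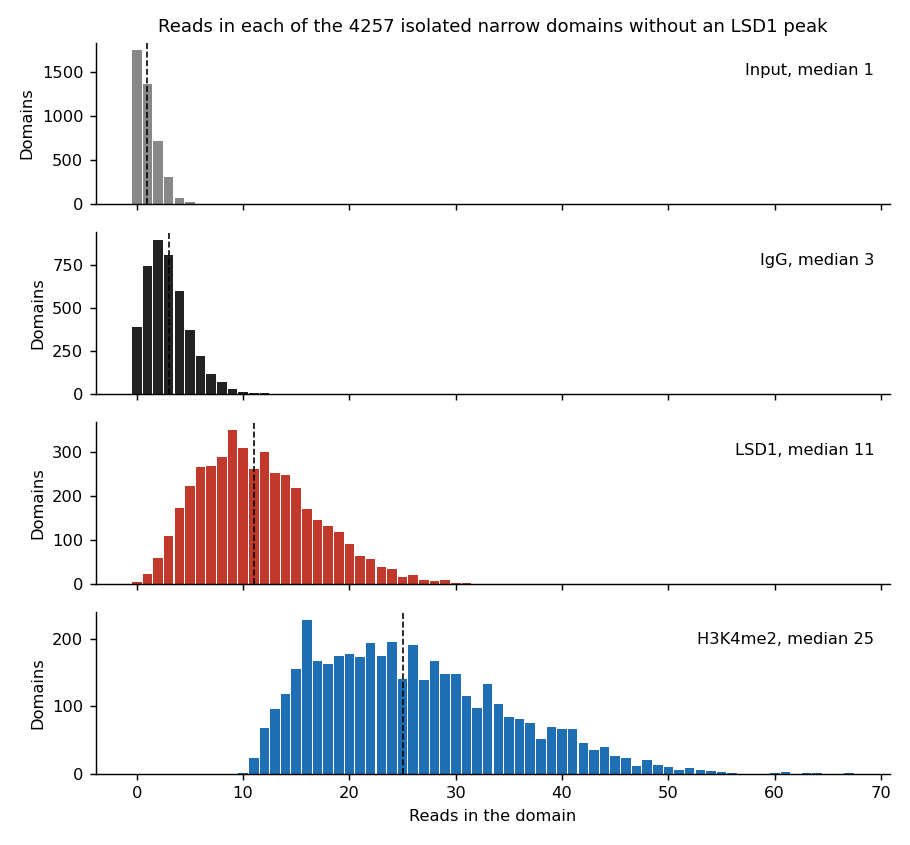
Number of domains (vertical axes) by the number of reads in the domain (horizontal axis) for each library, over all 4257 isolated narrow domains without an LSD1 peak; dashed lines mark medians. Medians rise from 1 read in Input to 3 in IgG, 11 in LSD1 and 25 in H3K4me2.

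Summed over the domains, the H3K4me2 library exceeded IgG 6.60-fold (6.48 to 6.72) and the LSD1 library exceeded IgG 3.18-fold (3.12 to 3.24). At single domains the H3K4me2 to IgG ratio was 2 or more in 4219 of 4257 (99.1%), where the share over all autosomal domains was 99.4%. The LSD1 to IgG ratio reached 2 in 3117 (73.2%), where the share over all autosomal domains was 82.0%. With the stricter demand that the 95% interval of the single ratio lie above 1, H3K4me2 passed in 4044 domains, where the share over all autosomal domains was 97.6%. LSD1 passed in 1561 (36.7%, against 63.3% over all autosomal domains). The 389 domains with no IgG read enter these single ratios with 0.5 reads added to each library. Both comparisons are those the choice used, so nothing is read from the shares. LSD1 reads per domain varied 1.37 times as much as counting error around one common level per bp would give (variance over counting variance, given span). For IgG this figure was 1.13, for Input 0.955 and for H3K4me2 0.605. LSD1, and to a lesser degree IgG, were therefore spread above counting error, in domains from which those with an LSD1 call had been removed. LSD1 also rose with span, from 2.77 RPM per kb in the shortest of 5 span classes to 3.29 in the longest. One common level per bp leaves that rise out. How far the rise added to the LSD1 spread, or the removal of called domains lowered it, was not tested. H3K4me2, whose reads set the calls, was spread less than counting error.

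Positions are given in mm9, counted from 1. The 10 domains with the most H3K4me2 reads held 54 to 67 of them. The first, on chromosome 18 from 38838102 to 38839019, held 67 H3K4me2 reads, 15 LSD1 reads, 2 IgG reads and no Input read. Its H3K4me2 to IgG ratio was 24.8 (6.61 to 209), a wide interval because of the few IgG reads. On chromosome 16 the domain from 30389038 to 30389991 held 64 H3K4me2 reads, 29 LSD1 reads, 6 IgG reads and 3 Input reads. On chromosome 9 the domain from 7914039 to 7915003 held 63 H3K4me2 reads and 19 LSD1 reads against 4 IgG reads and 2 Input reads. LSD1 reads in these 10 domains ranged from 11 to 30. The domain of chromosome 4 from 132312212 to 132313127 had 60 H3K4me2 reads but 11 LSD1 reads against 6 in IgG. Its LSD1 to IgG ratio was 1.49 (0.507 to 4.92), so that no LSD1 above IgG was detectable there at this depth. The interval also included 1 on chromosome 3 from 107846988, at 1.90 (0.835 to 4.72), and on chromosome 4 from 40823881, at 2.10 (0.835 to 5.94). In the rest of the 10 it lay above 1. The domain of chromosome 10 from 69982960 to 69983956 had 61 H3K4me2 reads and 30 LSD1 reads against 2 in IgG, a ratio of 12.2 (3.10 to 106). It was also among the 5 domains with the most LSD1 reads. The intervals of the ratios 1.49 and 12.2 overlap.

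The 5 domains with the most LSD1 reads held 29 to 31, without an LSD1 call, and the last was taken by position from several tied at 29, the domain of chromosome 16 above among them. The first by position, on chromosome 2 from 132770783 to 132771690, held 31 LSD1 reads, 45 H3K4me2 reads, 5 IgG reads and 3 Input reads. In bins of 200 bp its LSD1 reads peaked at 10, in the same bin as the 19 reads of the H3K4me2 maximum. The domain of chromosome 4 from 145022127 to 145022662 stood apart from the other 4. It held 30 LSD1 and 40 H3K4me2 reads in 536 bp, but 7 Input reads as well, the most of any of the 4257 domains, a count shared with 1 other. From 1 to 6 kb on either side of it all libraries were high too, with 80 Input, 68 IgG, 76 LSD1 and 66 H3K4me2 reads, against 10 to 22 Input reads beside 3 of the other domains of this group and 27 beside the fourth.

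At the other end, the 5 domains with the fewest H3K4me2 reads held 10 or 11, in spans of 288 to 306 bp, with 1 to 3 IgG reads and no Input read. LSD1 reads in them ranged from 2 to 7. The lowest of all, on chromosome 2 from 154845284 to 154845571, had 10 H3K4me2 reads and 7 LSD1 reads. Its LSD1 reads ran past the called span, with the fullest bin of 200 bp, at 6 reads, lying left of the span. The 5 most isolated domains had no other H3K4me2 domain for more than 3 Mb on either side. On chromosome 14 the domain from 94290204 to 94291104 was 5147047 bp from its nearest neighbour and held 35 H3K4me2, 16 LSD1 and 2 IgG reads. On chromosome 3 the domain from 45180846 to 45181327 held 14 H3K4me2, 8 LSD1 and no IgG read. Its H3K4me2 was 3.46-fold over a floor of 3 IgG reads, and the interval of its H3K4me2 to IgG ratio began at 2.46. This domain lay in a wider raised stretch, with 80 H3K4me2 and 51 LSD1 reads from 1 to 6 kb on its sides. The other 4 had 7 to 16 H3K4me2 reads there.

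**Figure D2:**
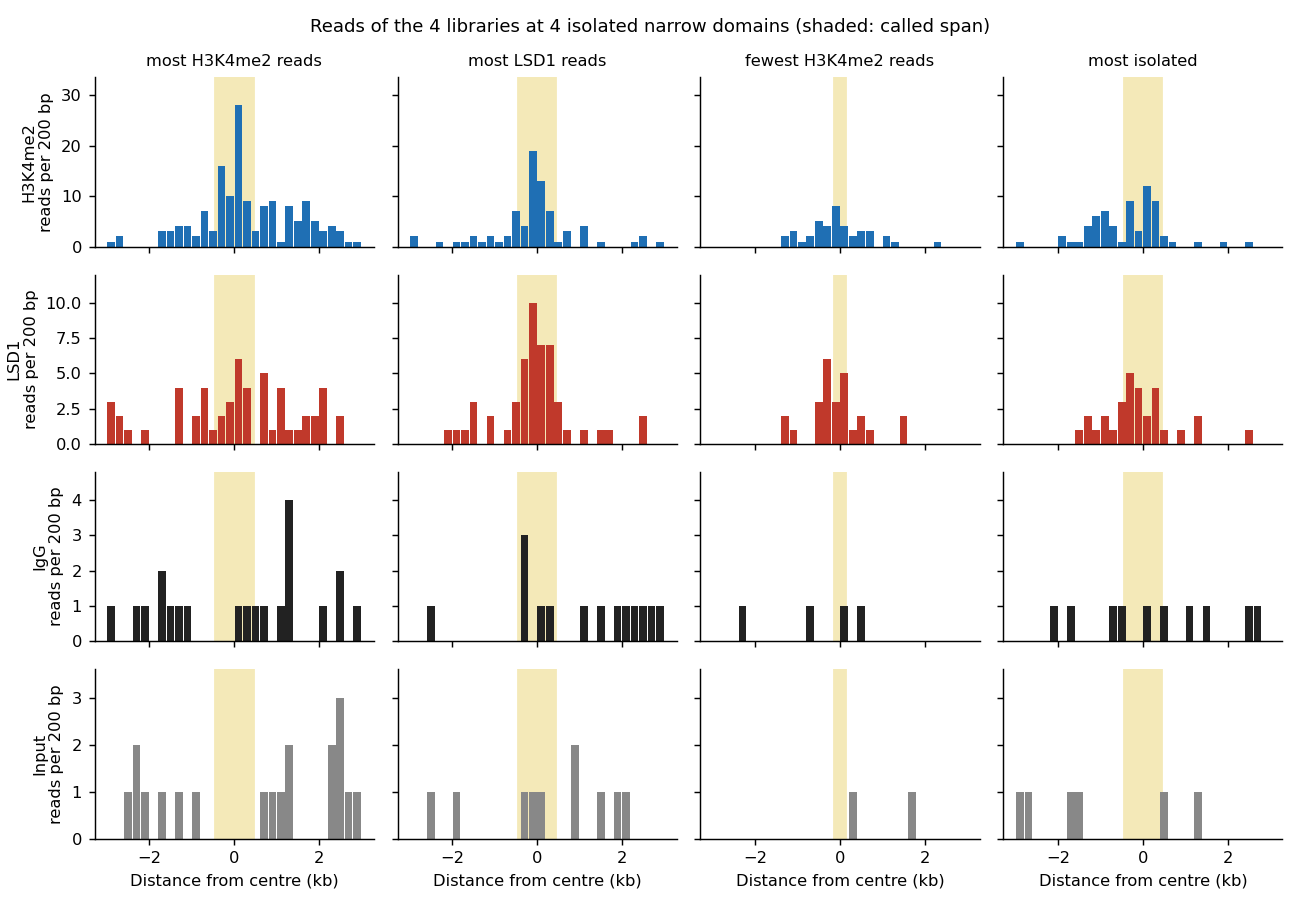
Reads per 200 bp (vertical axes, same scale along each row) against distance from the domain centre in kb for 4 isolated narrow domains (columns) and the 4 libraries (rows); shading marks the called span. The fullest H3K4me2 bin holds 28, 19, 8 and 12 reads from left to right, and IgG and Input bins hold at most 4 and 3.

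Some domains lay close to the limits of the choice. The 3 longest domains spanned 999 bp and held 34 to 42 H3K4me2 and 15 to 17 LSD1 reads, and the 3 otherwise alike domains of 1000 bp held 39 to 44 and 19 to 27. Of the 3 domains nearest the isolation limit, 2 were neighbours of each other on chromosome 16, at 20002 bp, and the third lay at 20006 bp. They held 20 to 25 H3K4me2 and 4 to 8 LSD1 reads. The 3 domains just outside, at 19985 to 19994 bp, held 21 to 36 and 8 to 10.

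The 10 kb on both sides of each domain held no other domain, so the level in each domain could be set against its own surroundings in the same library. Per bp, the domains exceeded their flanks at 5 to 10 kb 15.1-fold (15.0 to 15.2) in H3K4me2 and 6.54-fold (6.47 to 6.61) in LSD1. IgG was raised as well, 1.95-fold (1.91 to 1.98), and Input was lower in the domains than in the flanks, at 0.886 (0.859 to 0.914). The LSD1 library was thus raised at the domains by more than IgG was, though no LSD1 peak had been called in any of them. In the flanks the libraries lay close together, at 0.469 RPM per kb for Input, 0.502 for IgG, 0.475 for LSD1 and 0.428 for H3K4me2.

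The profile was sharp for the mark and broader for LSD1 and IgG, while Input dipped at the centre. In the 100 bp on either side of the centre H3K4me2 stood at 8.20 RPM per kb (8.12 to 8.27), LSD1 at 3.51 (3.46 to 3.56), IgG at 1.03 (0.996 to 1.06) and Input at 0.382 (0.361 to 0.404). The excess over the level at 5 to 10 kb fell under 50% of the central excess at 250 bp in H3K4me2, 400 bp in LSD1 and 550 bp in IgG. The centres were set by H3K4me2 calls, which sharpens that profile. The mark also went on past the called span. At 1000 to 1500 bp from the centre, outside every domain, H3K4me2 was still at 1.11 RPM per kb (1.10 to 1.13) and LSD1 at 0.880 (0.868 to 0.892), both above their levels at 5 to 10 kb. IgG and Input were above theirs as well, at 0.624 (0.613 to 0.635) and 0.503 (0.492 to 0.514). In the 357 isolated narrow domains with a called LSD1 peak, H3K4me2 and LSD1 both fell under 50% at 300 bp, and IgG again at 550 bp.

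**Figure D3:**
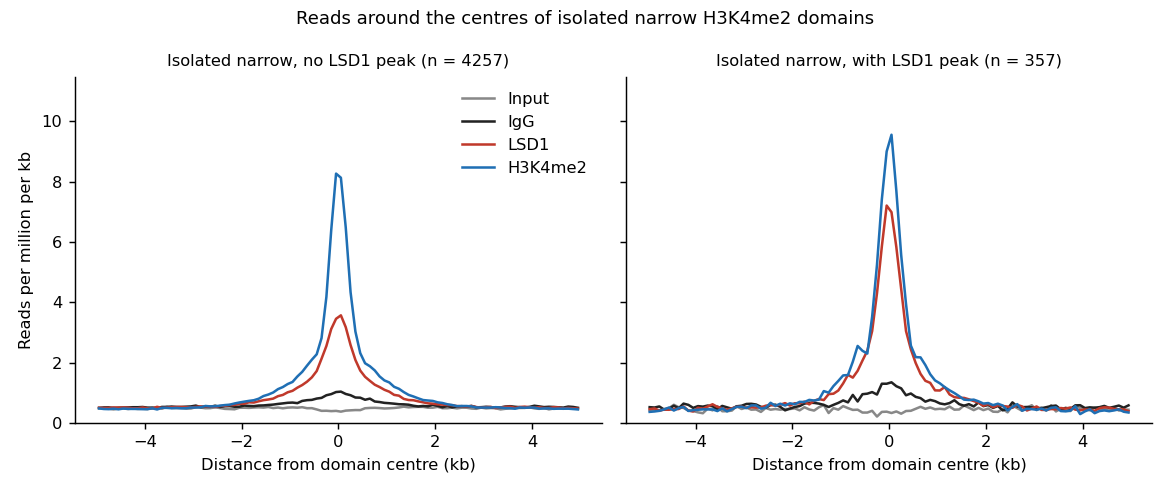
RPM per kb (vertical axis) against distance from the domain centre in kb for the 4 libraries, in isolated narrow domains without (left) and with (right) a called LSD1 peak; bins are 100 bp. LSD1 forms a central peak of 3.51 RPM per kb on the left and 7.10 on the right, and Input dips at the centre in both.

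The controls, of which Input had no part in the choice as far as the sources state, were not even over these domains. IgG exceeded Input 2.35-fold (2.27 to 2.43) in them. At single domains this ratio was 2 or more in 2127 of 4257, a share near the 50.2% of all autosomal domains. Its interval lay above 1 in 76 (1.79%, against 9.29% over all autosomal domains, which are longer and hold more reads). The ratio fell with span. When the domains were ordered by span into 5 classes, IgG over Input was 4.08 (3.60 to 4.64) in the shortest class, with a median span of 412 bp, and 2.10 (1.97 to 2.24) in the longest, with a median of 884 bp. The move lay in Input. Its level rose from 0.226 to 0.480 RPM per kb from the shortest to the longest class, while IgG went from 0.922 to 1.01. The control used for calling the peaks is not given in the sources used here, so whether Input entered the calls was not tested. Ratios to Input were accordingly higher in short domains, at 12.2 for LSD1 and 26.6 for H3K4me2 in the shortest class against 6.85 and 14.0 in the longest.

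Against IgG, neither ChIP library moved much with span. H3K4me2 over IgG was 6.52 (6.18 to 6.88) in the shortest class and 6.68 (6.45 to 6.91) in the longest, and LSD1 over IgG was 3.0 (2.83 to 3.18) and 3.26 (3.15 to 3.38). Over classes of H3K4me2 density the direction for LSD1 turned with the control. From the class of lowest to the class of highest density, LSD1 over IgG went from 2.84 (2.70 to 2.98) to 3.40 (3.26 to 3.54), while LSD1 over H3K4me2 went from 0.511 (0.498 to 0.526) to 0.455 (0.446 to 0.465). LSD1 over Input fell, from 9.84 (8.98 to 10.8) to 7.03 (6.62 to 7.48), as IgG over Input went from 3.47 to 2.07 and the median span from 522 to 694.5 bp. These classes were cut on the H3K4me2 reads themselves, which raises that denominator in the highest class.

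The ratios were higher in the most isolated domains. Over 5 classes of distance to the nearest domain, LSD1 over IgG lay between 3.06 and 3.18 in the nearer 4 and was 3.50 (3.33 to 3.67) in the farthest, from 121939 bp on. H3K4me2 over IgG rose in the same class, to 7.18 (6.86 to 7.52) from 6.41 to 6.57 in the others. That class also had the shortest median span, 560 bp against 600 to 634 bp, and its IgG over Input was 2.57 against 2.17 to 2.44. Their part in the difference was not tested. LSD1 over H3K4me2 showed no such step, at 0.478 (0.467 to 0.490) in the nearest class and 0.487 (0.475 to 0.499) in the farthest, whose intervals overlap. It was also 0.482 (0.471 to 0.494) in the class nearest to a called LSD1 peak and 0.471 (0.459 to 0.483) in the class farthest from one.

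**Figure D4:**
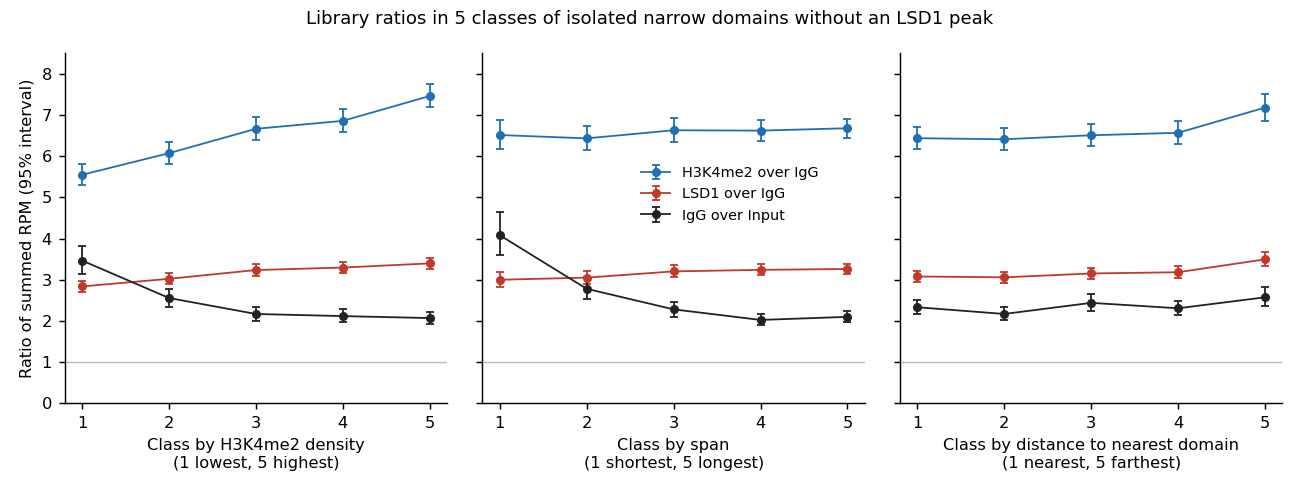
Ratio of summed RPM (vertical axis, with 95% intervals) in 5 classes of about equal size of the isolated narrow domains without an LSD1 peak, ordered by H3K4me2 density, span and distance to the nearest domain. IgG over Input falls from 4.08 to 2.10 with span, while LSD1 over IgG stays between 3.0 and 3.26.

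How far these domains lay from a call of LSD1 was seen by setting them beside the 357 isolated narrow domains with an LSD1 peak. In those, LSD1 reads ranged from 6 to 128 with a median of 21, in a median span of 708 bp. Of the domains without a call 259 (6.08%) held 21 or more LSD1 reads, and 1630 (38.3%) held at least 13, the level of the lowest 5% of the called ones. The 259 had a median span of 882 bp, and in them LSD1 stood at 4.66 RPM per kb, against 5.77 in the called domains with as many reads. Within the fullest 400 bp of each domain the called ones held a median of 17 LSD1 reads and those without a call a median of 9. A count of 17 or more in such a window was reached by 99 of the 4257 (2.33%). At least 12, the level of the lowest 5% of the called ones in such a window, was reached by 1134 (26.6%). The ranges thus overlapped, and the absence of a call did not mean that LSD1 reads were absent. Over IgG, LSD1 was 3.18 in the domains without a call and 4.52 (4.27 to 4.78) in those with one, a ratio of 0.704 (0.663 to 0.747) that the choice itself lowers. The controls differed too. IgG over Input was lower in the domains without a call, at 0.706 (0.623 to 0.799) of the 3.32 found in those with one.

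A pair of further sets shared all but 1 feature of the choice: 7140 narrow domains without LSD1 that had a neighbour within 20 kb, and 2335 isolated domains of 1 kb or more without LSD1. Against the crowded narrow domains, the isolated ones had an LSD1 to IgG ratio 1.05 times as high (1.03 to 1.08), from 3.18 against 3.02. It was higher on 16 of 19 autosomes. H3K4me2 over IgG was higher by as much, 1.05-fold (1.02 to 1.07), and LSD1 over H3K4me2 differed by less than counting error, at a ratio of 1.01 (0.992 to 1.02). The level per kb of each library was in fact slightly lower in the isolated domains, at 3.10 against 3.15 RPM per kb for LSD1, 6.43 against 6.57 for H3K4me2 and 0.975 against 1.04 for IgG. Against the longer isolated domains, LSD1 over IgG differed by less than its counting interval, with a ratio of 1.01 (0.983 to 1.03). H3K4me2 over IgG was 1.08 times as high in the narrow ones (1.06 to 1.11), so LSD1 over H3K4me2 was lower in them, at 0.929 (0.917 to 0.942) of the level in the longer domains.

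Between autosomes the number of these domains per Mb varied less than that of H3K4me2 domains as a whole. Their number per Mb of the stretch with reads ran from 1.34 on chromosome 14 to 2.21 on chromosome 9, while all domains ran from 6.40 per Mb on chromosome 14 to 17.4 on chromosome 11. As a share of all domains they were fewest on chromosome 11, with 12.3%, and most on chromosome 13, with 25%. The demand for isolation lowers the share where domains are dense, and so also works towards an even number per Mb. Nothing is therefore read from the narrower range. LSD1 over IgG in them lay between 2.89 on chromosome 11 and 3.50 on chromosome 16, and LSD1 over H3K4me2 between 0.457 on chromosome 12 and 0.499 on chromosome 11.

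**Figure D5:**
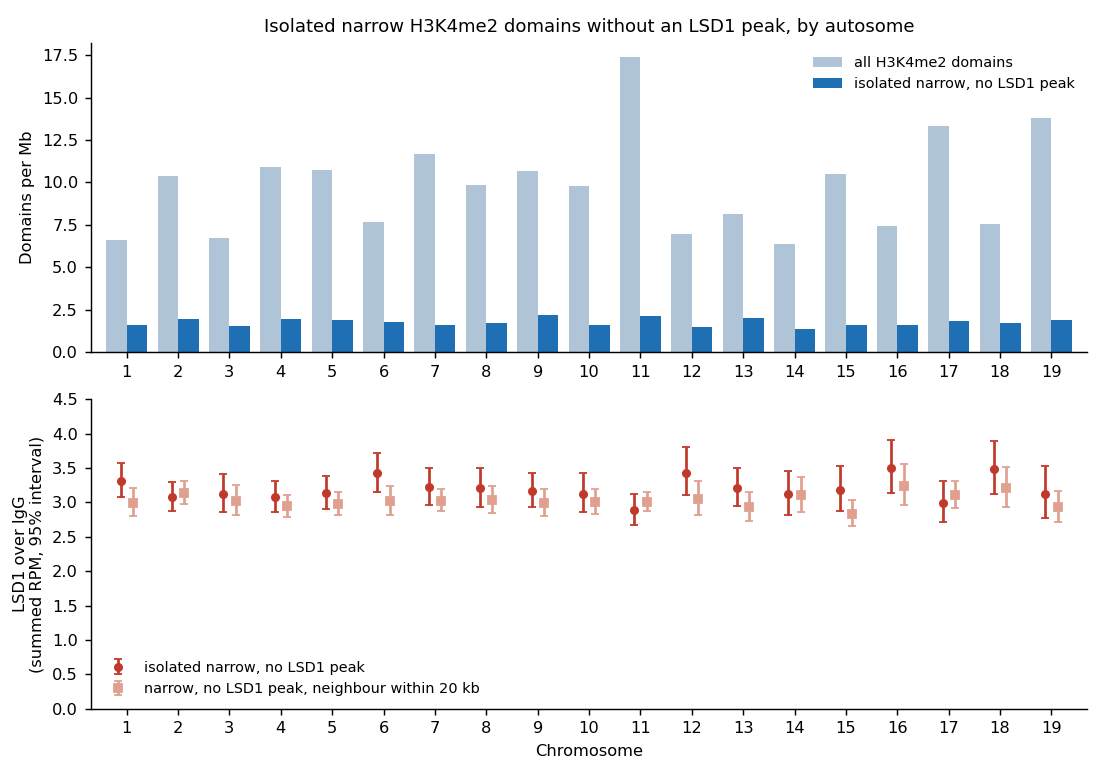
Upper panel, domains per Mb (vertical axis) by autosome for all H3K4me2 domains and for isolated narrow ones without an LSD1 peak; lower panel, ratio of summed LSD1 to IgG RPM with 95% intervals for these and for narrow ones with a neighbour within 20 kb. The isolated narrow domains range from 1.34 to 2.21 per Mb while all domains range from 6.40 to 17.4.

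The spacing of these domains along the chromosome was described by their neighbours and by the nearest LSD1 peaks. The median distance to the nearest domain was 49782 bp, the upper quartile 101601 bp, and 45 domains were more than 1 Mb from any other. In 2673 (62.8%) the next domain on at least one side was of the same kind, forming 976 runs of which the longest held 17. No such share was computed over other domains, and these domains made up 54.6% of the isolated autosomal ones. Nothing is therefore read from the runs. For 1655 (38.9%) the nearest domain of all was of the same kind, which held for 12.6% of all autosomal domains. Domains with a neighbour within 20 kb cannot have one of these as their nearest. The 2925 domains behind the 12.6% thus all lie among the 7801 isolated ones. The 12.6% is low by the choice itself, and nothing is read from the difference. The nearest called LSD1 peak lay at a median of 201422 bp. A peak lay within 20 kb of 71 domains (1.67%), and none lay within 1 Mb of 514 (12.1%). The choice left out overlaps with LSD1 peaks and any other H3K4me2 domain within 20 kb, which lowers the share near a peak. These distances were not computed over all autosomal domains.

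Reads fell almost evenly on both strands. In H3K4me2 49.8% of the reads in these domains were on the plus strand, and all 4257 domains held reads of both strands. In 39 domains at least 80% of H3K4me2 reads were on 1 strand, and in LSD1 this held for 84 of the 2496 domains with 10 or more reads. Pairs of starts on opposite strands were most frequent at distances of 100 to 119 bp in H3K4me2 and Input and of 80 to 99 bp in LSD1 and IgG. The maximum was clear in H3K4me2, with 33402 pairs against 21547 at 380 to 399 bp, and flatter in LSD1, with 7894 against 6020. The controls had a maximum too, with 914 against 605 in IgG and, from few pairs, 170 against 71 in Input. It was thus not particular to the ChIP of the mark.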

How the data were processed

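ChIP-seq reads of 4 libraries, with 1 library per group, were analysed. Per the labels, 36-base reads came from fragments of about 200 bp, and the submitters' processing notes name mm9 as the build. The authors deposited 1 line per aligned read, so counts are lines per region. In each library 0 reads repeated the start and strand of another. The authors also deposited peak positions for IgG, LSD1 and H3K4me2, without scores. Which aligner, peak caller, threshold and control were used is not given in the sources used here.

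Each read start was moved 100 bp along its strand. Ratios of RPM carry exact binomial intervals, which were tried on simulated LSD1 and IgG counts. Ratios between sets carry exact conditional intervals, which were compared with those of scipy on a small set of fixed counts. Single ratios used 0.5 reads as pseudocount. A domain without a neighbour towards a chromosome end, as on 14 occasions, counted as isolated there. Joined domains were named by rule: the 10 with the most and the 5 with the fewest H3K4me2 reads, the 5 with the most LSD1 reads, the 5 most isolated, and 3 on each side of both limits, with ties taken by position. The domain with the most Input reads was noted after its values were seen. The domains, sets and measures were chosen with earlier results of these data known. The reference tables were of an assembly other than mm9, and no genome was used here, so genes, sequence and cell markers were not examined. Scripts ran in Python 3.11.15 with scipy 1.17.1, numpy 2.4.6, pandas 2.3.3 and, for figures, matplotlib 3.10.9.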

Additional observations from a re-analysis of the deposited data

How the results depend on the processing

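Over 17 results, 58 alternative values were computed, 10 of them chosen after seeing the data. Of the 58, 37 stayed within the main interval (counts within 1.5 times), 21 moved beyond it, and 0 turned a ratio whose main interval lay on 1 side of 1. LSD1 over IgG relative to the longer isolated domains, whose main interval spans 1, went from 1.01 to 0.992 with isolation beyond 10 kb. Joining distances of 500 bp and 2 kb left the number of domains at 4257. No paired analysis was possible because there was a single library of each kind. With Input as the control, H3K4me2 stood at 15.5 and LSD1 at 7.46, the shares of domains past 2-fold at 100% and 92.0%, and LSD1 relative to the called, the crowded and the longer domains at 0.497, 1.13 and 1.12. With scaling to reads outside peaks the H3K4me2 and LSD1 ratios to IgG were 7.99 and 3.44, in the upper 50% by H3K4me2 density 7.07 and 3.32, and with isolation beyond 50 kb, which left 2119 domains, 6.73 and 3.27. Isolation beyond 10 kb gave 6.47 for H3K4me2. LSD1 over IgG was 2.96 in the domains with an IgG read. IgG over Input was 2.62 in spans under 700 bp. The shares past the threshold were 69.3% for LSD1 with a pseudocount of 1 read, and with the interval above 1 they were 36.7% for LSD1 and 95% for H3K4me2. Shares over all autosomal domains were not computed against Input or with a pseudocount of 1 read, so nothing is read from those. Against Input, 41.1% of the domains had no Input read and rest on the 0.5 reads added. With starts not moved, H3K4me2 exceeded its flanks 15.3-fold. The cause of these moves was not tested. Depth limits single domains most, since a median of 3 IgG reads leaves each ratio with a wide interval.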

Other observations

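Chromosome X, which the choice left out, held 210 H3K4me2 domains. Of these 109 (51.9%, against 18.3% of the autosomal domains) met the same limits of span, isolation and absence of LSD1 and IgG peaks. They were shorter, with a median span of 449 bp, and held medians of 16 H3K4me2 reads, 6 LSD1 reads and 1 IgG read, with no IgG read in 35. H3K4me2 exceeded IgG 10.6-fold (8.92 to 12.7) and LSD1 exceeded IgG 4.09-fold (3.40 to 4.95) in them. LSD1 over H3K4me2 was 0.386 (0.353 to 0.421), below the range of 0.457 to 0.499 over the 19 autosomes. In the shortest span class of the autosomal domains, with a median of 412 bp, it was 0.460 (0.446 to 0.475). The X domains too were chosen by their H3K4me2 calls, from fewer reads per domain. The part of the calls, span and read number in these differences was not tested. The X domains rested on 137 IgG reads in all.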
